A study of Mus musculus with 8 samples.

Results

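The caspases are a family of cysteine proteases, and 8 of their genes are described here: the initiators Casp9, Casp2 and Casp8, the executioner Casp6, the inflammatory caspases Casp1, Casp4 and Casp12, and the epidermal caspase Casp14. They were chosen by name, as all non-control probes whose gene name on the array equals one of these symbols. That gave 8 probes, 1 for each gene, among 41174 non-control probes on the array. Messenger RNA bound to DAZL was recovered by immunoprecipitation (IP) from native lysate, without UV crosslinking, and hybridised to one-colour Agilent arrays. All 8 arrays came from V6.5-derived mouse embryonic stem cells of mixed C57BL/6 and 129SV background that carried a Dazl-GFP-V5 fusion, kept for 12 days in differentiation medium after feeder depletion; the labels call the product primordial germ cells. The sources used here do not give the promoter of the fusion. The 4 groups, with 2 arrays each, were the V5 IP (anti-V5 antibody), the GFP IP (anti-GFP antibody), the mock IP (normal mouse IgG) and the input (total RNA of the lysate, no antibody). The mock IP and the input therefore came from cells with the same fusion, and no group came from cells without it. The 2 arrays of a group came from independent RNA-IP experiments per the series' design, and p-values reflect the scatter of these arrays alone, part of which can be technical.

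Initiator caspases are activated on scaffold complexes: caspase-9 on the apoptosome, built from APAF1 and cytochrome c released from mitochondria, caspase-8 at death receptors such as FAS through the adaptor FADD, and caspase-2 on a complex of PIDD1 and CRADD. Executioner caspases are cut by the initiators and then cleave the proteins whose loss dismantles the cell. Inflammatory caspases process cytokines or the pore-forming protein gasdermin D, and caspase-14 acts in the cornified layer of the skin. DAZL binds messenger RNA in germ cells and acts on its translation, and apoptosis is one way in which germ cells are lost during development.

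Values are log2 signals after the 75th percentile of the same array was subtracted, so 0 is the level of a probe at that percentile. Because probes differ in how well they hybridise, levels are compared for 1 probe between arrays and not between genes. All 8 caspase probes passed the filter on dim probes, which 28104 of the 41174 probes passed, and none was saturated. Probes of Casp1, Casp2, Casp4, Casp6, Casp8, Casp9 and Casp12 were well above background on all 8 arrays, and that of Casp14 on 7. Some of these probes were still dim. On mock IP replicate 1 the lowest intensity well above background was 9.08 units, with Casp1 at 13.7 and Casp12 at 19.5. On GFP IP replicate 1 it was 12.3, with Casp1 at 14.7 and Casp12 at 20.9. On V5 IP replicate 2 it was 14.2, with Casp14 at 18.4. Differences of Casp1, Casp12 and Casp14, called or not, thus rest in part on dim signals. Between 61.3% (mock IP replicate 1) and 70.5% (input replicate 1) of probes were well above background. Mock IP replicate 1 was also the dimmest array, with a 75th percentile of 352 intensity units against 641 to 1130 on the other 7, and it stood apart on the second principal component. Every replicate 1 lay on one slide and every replicate 2 on another, so differences within each slide are given beside the caspases' tests. Each group also held the same position on both slides (mock IP 1, V5 IP 2, GFP IP 3, input 4). Group and position therefore cannot be told apart, also not within a slide. In the input, a bulk lysate, fewer cells of a type and less RNA per cell cannot be told apart. Dazl, the gene of the tagged protein, was 6.19-fold higher in the V5 IP than in the mock IP (adjusted p = 0.00554, limma). In the GFP IP it was 6.56-fold higher than in the mock IP (adjusted p = 0.0044, limma). Its log2 signal was 1.06 and 2.05 in the mock IP, 2.93 and 2.83 in the input, and 4.04 and 4.32 in the V5 IP. Both mock IP arrays thus lay below both input arrays, and the mock IP arrays lay apart from each other. Every V5 IP and GFP IP array was above both input arrays, by less than above the mock IP array of its slide. Whether the Dazl probe reads the fusion's message or the endogenous one was not tested.

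**Figure D1:**
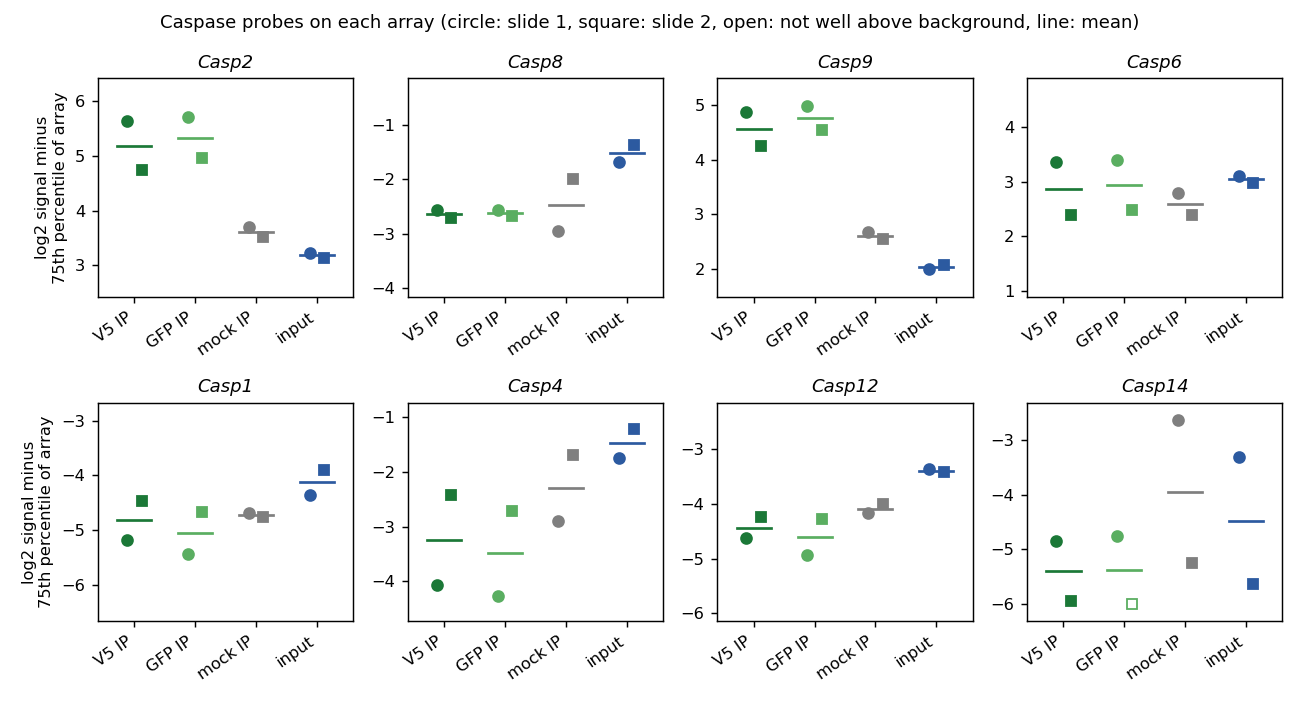
Normalized log2 signal of each caspase probe on every array, with the V5 IP, GFP IP, mock IP and input from left to right; circles are replicate 1, squares replicate 2 and bars the mean of 2 arrays. The 4 IP arrays of Casp9 lie between 4.24 and 4.98, above both mock IP arrays and both input arrays, while those of Casp6 lie between 2.39 and 3.39 and overlap them.

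Against the mock IP, Casp9 and Casp2 were the caspases that passed the test, both higher, with either antibody. The comparison asks which messages the tagged protein brings down beyond those that stick to an unrelated antibody. That is 2 of 8 caspase probes, where 15.3% of all probes tested were called higher and 17.1% lower in the V5 IP (adjusted p under 0.05), and 17.1% higher and 22.5% lower in the GFP IP. No caspase was called lower. Both antibodies were set against the same 2 mock IP arrays, and their arrays of 1 slide shared deviations (r = 0.78 across probes). Calls made with both are therefore not separate evidence. With 8 probes, a count of 2 is near what the background share gives, so the family as a whole is not set apart by it. The all-probe counts moved widely when 1 array was left out: higher calls ran from 1579 (without V5 replicate 1) to 4510 for V5 and from 1958 (without GFP replicate 1) to 4852 for GFP. Lower calls ran from 63 (without V5 replicate 1; 122 without mock IP replicate 1, 355 without either input array) to 6315 for V5, and from 159 (without GFP replicate 1) to 6818 for GFP, the upper ends without mock IP replicate 2. The median difference over the 8 caspases was -0.13 in the V5 IP and -0.24 in the GFP IP, and over all probes tested -0.36 with each antibody.

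Casp9 encodes the initiator of the mitochondrial pathway. Its normalized log2 signal was 4.87 and 4.24 in the V5 IP, 4.98 and 4.54 in the GFP IP, 2.67 and 2.54 in the mock IP, and 1.998 and 2.071 in the input. All 4 IP arrays were above all 4 others, and the mock IP arrays were above the input arrays. Casp9 was 3.87-fold higher in the V5 IP than in the mock IP, a log2 difference of 1.95 ± 0.29 (SE, 2 arrays against 2, limma adjusted p = 0.00561). In the GFP IP it was 4.45-fold higher, a log2 difference of 2.15 ± 0.29 (adjusted p = 0.0036). The difference was of like size on both slides, at 2.20 and 1.70 for V5 and 2.31 and 2.001 for GFP. Both calls were also made without each array in turn, at adjusted p of up to 0.0377 for V5 and 0.0284 for GFP, and under each of the other 9 settings run. Casp9 stood at percentile 93.9 of all V5 differences and at percentile 95.1 of all GFP differences.

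The genes that act with caspase-9 changed in both directions. Of 16 genes for the apoptosome and the release of mitochondrial proteins, 4 rose and 2 fell in the V5 IP against the mock IP, and 4 rose and 8 fell in the GFP IP, beside all-probe shares of 15.3% higher and 17.1% lower for V5 and 17.1% and 22.5% for GFP. With slide as a block, 9 fell in the V5 IP and 8 in the GFP IP, where 33.2% and 35.7% of all probes were lower. The list's median log2 difference was -0.69 in the V5 IP and -0.61 in the GFP IP. The 4 genes that rose were the same with both antibodies: Apaf1, Diablo, Mcl1 and Pmaip1. The 2 that fell with V5 were Htra2, a mitochondrial protease, and the anti-apoptotic Bcl2l1, which also fell with GFP. Mcl1, Pmaip1, Htra2 and Bcl2l1 are named after their values were seen.

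Apaf1, the scaffold of the apoptosome, had 1.84 and 1.57 in the V5 IP, 1.99 and 1.76 in the GFP IP, -0.0082 and 0.34 in the mock IP, and 0.82 and 0.37 in the input (normalized log2 signal). Its IP arrays were above all mock IP and input arrays, with log2 differences from the mock IP of 1.53 ± 0.27 for V5 (adjusted p = 0.0104) and 1.71 ± 0.27 for GFP (adjusted p = 0.0062). The V5 call ended without mock IP replicate 1 or V5 replicate 1. Diablo, whose product blocks the inhibitor of caspase-9, was higher by 1.83 ± 0.49 in the V5 IP (adjusted p = 0.0320) and by 1.91 ± 0.49 in the GFP IP (adjusted p = 0.0227), and 1 of its 2 probes had the opposite sign for GFP. Pmaip1, the BH3-only protein NOXA, had the largest rise of the list, at 3.04 ± 0.28 and 3.12 ± 0.28, and Mcl1, the anti-apoptotic protein that NOXA binds, was higher by 1.74 ± 0.41 and 1.87 ± 0.41.

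Cycs, which encodes cytochrome c, lay the other way. Its log2 difference from the mock IP was -0.74 ± 0.28 in the V5 IP (adjusted p = 0.0738) and -0.86 ± 0.28 in the GFP IP (adjusted p = 0.0436), with 2 of its 3 probes of the opposite sign. Bid, which carries the signal of caspase-8 to mitochondria, differed by -0.31 ± 0.22 and -0.19 ± 0.22 and passed neither test.

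Of the caspase inhibitors, 8 of 9 listed genes were measured, and 1 rose with each antibody: Xiap, which in mammals binds and blocks caspase-9 and executioner caspases. Its normalized log2 signal was 0.91 and 0.71 in the V5 IP, 0.64 and 0.67 in the GFP IP, -2.14 and -1.62 in the mock IP, and -2.25 and -2.15 in the input. The groups did not overlap, and Xiap was 6.44-fold higher in the V5 IP than in the mock IP (adjusted p = 0.00256) and 5.79-fold higher in the GFP IP (adjusted p = 0.00226), also without each array in turn. Birc6, a large inhibitor with ubiquitin ligase activity, differed by -0.85 ± 0.28 in the V5 IP (adjusted p = 0.0548) and -0.87 ± 0.28 in the GFP IP (adjusted p = 0.0450), the one lower call of the list. Birc5, survivin, differed by -0.57 ± 0.24 and -0.64 ± 0.24, and Cflar, an inhibitor of caspase-8 activation, by 0.20 ± 0.22 and 0.32 ± 0.22; neither passed. When slide entered the fit, 4 of the 8 measured genes of the list were lower with each antibody, beside 33.2% of all probes for V5 and 35.7% for GFP. These 8 include Arc, which in mouse names a cytoskeletal gene of neurons and not a known caspase inhibitor, so list counts are not counts of inhibitors alone.

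**Figure D2:**
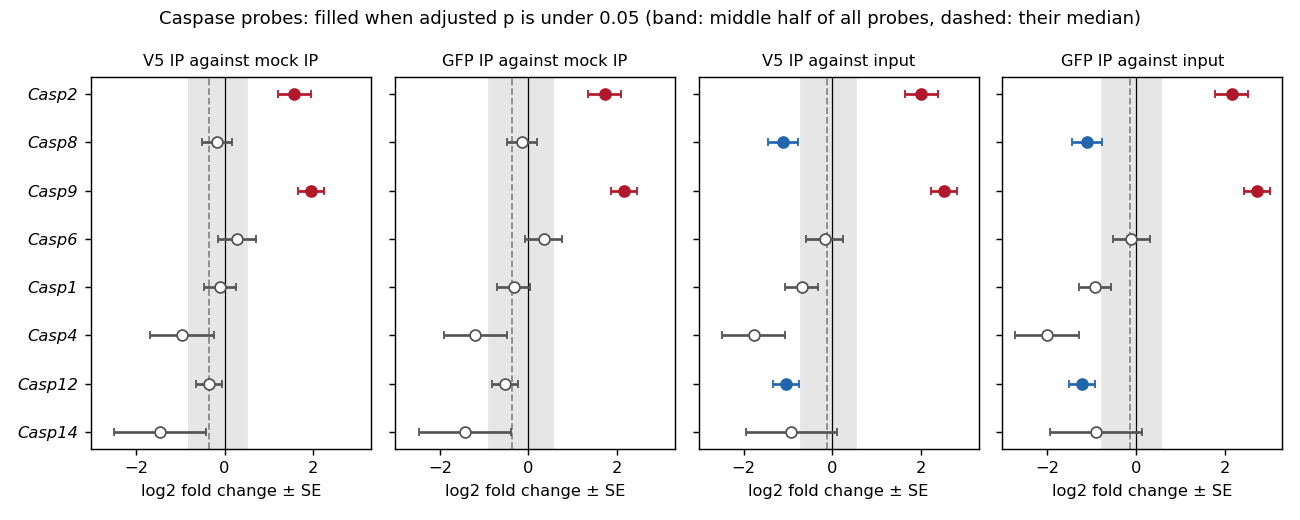
Log2 difference of each caspase between the V5 IP or GFP IP and the mock IP, and between each IP and the input, with its standard error (bar) from limma; filled points passed at adjusted p under 0.05, the dashed line is the median of all probes tested and the grey band holds their middle 50%. Casp9 and Casp2 lie right of the band in all 4 comparisons, at differences of 1.58 to 2.73.

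Casp2 encodes the initiator that responds to DNA damage and to extra centrosomes. It had 5.63 and 4.74 in the V5 IP, 5.71 and 4.96 in the GFP IP, 3.70 and 3.52 in the mock IP, and 3.23 and 3.13 in the input (normalized log2 signal). All 4 IP arrays were above all 4 others, and within each IP group replicate 1 was higher than replicate 2, by 0.90 for V5 and 0.74 for GFP. Casp2 was 2.98-fold higher in the V5 IP than in the mock IP, a log2 difference of 1.58 ± 0.37 (limma adjusted p = 0.0241). In the GFP IP it was 3.31-fold higher, a log2 difference of 1.73 ± 0.37 (adjusted p = 0.0144). The differences were 1.94 on the first slide and 1.22 on the second for V5, and 2.01 and 1.44 for GFP.

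The calls of Casp2 were less firm than those of Casp9 under the alternatives run. The V5 call ended with normexp background correction (adjusted p = 0.0983) and without input replicate 1 or 2, mock IP replicate 1 or 2, or V5 replicate 1 (up to 0.116). The GFP call ended with normexp (0.0683) and without mock IP replicate 1 or GFP replicate 1 (up to 0.0858). The direction was higher under all 17 alternatives with both antibodies. The 2 genes of the caspase-2 platform lay lower: Cradd differed by -0.79 ± 0.24 in the V5 IP (adjusted p = 0.0422) and -0.50 ± 0.24 in the GFP IP (adjusted p = 0.131). Pidd1, named after its values were seen, differed by -0.97 ± 0.26 (adjusted p = 0.0309) and -1.05 ± 0.26 (adjusted p = 0.0198). The Cradd call ended without any 1 of the 8 arrays.

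Casp8, the initiator at death receptors, showed no difference from the mock IP that passed the test. Its normalized log2 signal was -2.56 and -2.71 in the V5 IP, -2.57 and -2.68 in the GFP IP, -2.95 and -1.99 in the mock IP, and -1.68 and -1.37 in the input. The IP arrays lay between the 2 mock IP arrays and below both input arrays. The log2 difference from the mock IP was -0.17 ± 0.34 for V5 (95% interval -0.96 to 0.63, adjusted p = 0.718) and -0.15 ± 0.34 for GFP (-0.95 to 0.64, adjusted p = 0.734). The sign differed between slides, at 0.38 and -0.72 for V5 and 0.38 and -0.69 for GFP.

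Genes that act at death receptors or on the platforms of initiators were lower or did not pass. Of 13 receptors, ligands, adaptors and platform genes, 0 rose and 6 fell in the V5 IP, and 0 rose and 6 fell in the GFP IP. The medians were -0.88 and -1.04. Of all probes, 17.1% fell for V5 and 22.5% for GFP. The falls include genes of the caspase-2 platform already given above, Pidd1 with both antibodies and Cradd with V5. At an unadjusted p under 0.05 by limma, 0 were higher and 8 lower in the V5 IP, and 0 higher and 7 lower in the GFP IP, where 19.2% of all probes were higher and 28.6% lower for V5, and 20.4% and 30.8% for GFP. When slide entered the fit as a block, 10 and 9 were lower, beside the 33.2% and 35.7% of all probes given above; with normexp background correction, 0 were called in either direction. Fadd, the adaptor that recruits caspase-8, differed by -0.77 ± 0.24 in the V5 IP (adjusted p = 0.0434) and -0.58 ± 0.24 in the GFP IP (adjusted p = 0.0874). Fas, a death receptor, differed by -0.88 ± 0.31 (adjusted p = 0.0618) and -1.04 ± 0.31 (adjusted p = 0.0338). Casp8ap2, a large nuclear protein named for its binding to caspase-8, differed by -0.31 ± 0.51 and -0.65 ± 0.51 and passed neither test.

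Casp6, the one executioner caspase described here, did not pass the test against the mock IP. It had 3.36 and 2.39 in the V5 IP, 3.39 and 2.48 in the GFP IP, 2.79 and 2.40 in the mock IP, and 3.11 and 2.97 in the input (normalized log2 signal). The groups overlapped, and the 2 IP replicates lay 0.97 apart for V5 and 0.91 for GFP. Its log2 difference from the mock IP was 0.28 ± 0.42 in the V5 IP (95% interval -0.70 to 1.27, adjusted p = 0.616) and 0.35 ± 0.42 in the GFP IP (-0.64 to 1.33, adjusted p = 0.533). On the first and second slide the difference was 0.57 and -0.0078 for V5, which changed sign, and 0.61 and 0.08 for GFP. Rises as large as the upper bounds, 1.27 and 1.33, are thus within the error.

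The initiators and Casp6 can be set against each other within an array, since the ratio of 2 probes on 1 array does not depend on how that array was scaled. The Casp9 to Casp6 ratio was higher in the V5 IP than in the mock IP by 1.63 on the first slide and 1.71 on the second (log2), and in the GFP IP by 1.70 and 1.92. That is a mean change of 3.18-fold for V5 and 3.50-fold for GFP. The Casp2 to Casp6 ratio was higher by 1.37 and 1.22 in the V5 IP and by 1.41 and 1.36 in the GFP IP, or 2.45-fold and 2.61-fold. Both slides showed each rise at close to the same size, closer than for the probes taken alone. For Casp8 the ratio changed by -0.19 and -0.71 in the V5 IP and by -0.23 and -0.77 in the GFP IP. The log2 ratios themselves overlapped, at -5.73 and -4.39 in the mock IP, -5.92 and -5.10 in the V5 IP, and -5.96 and -5.16 in the GFP IP. The Casp8 ratio thus did not show the rise of the Casp9 and Casp2 ratios, and its direction is not settled. The exact two-sided permutation test gave p = 0.333 for the Casp9 and Casp2 ratios, which is the smallest p that 2 arrays against 2 allow.

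**Figure D3:**
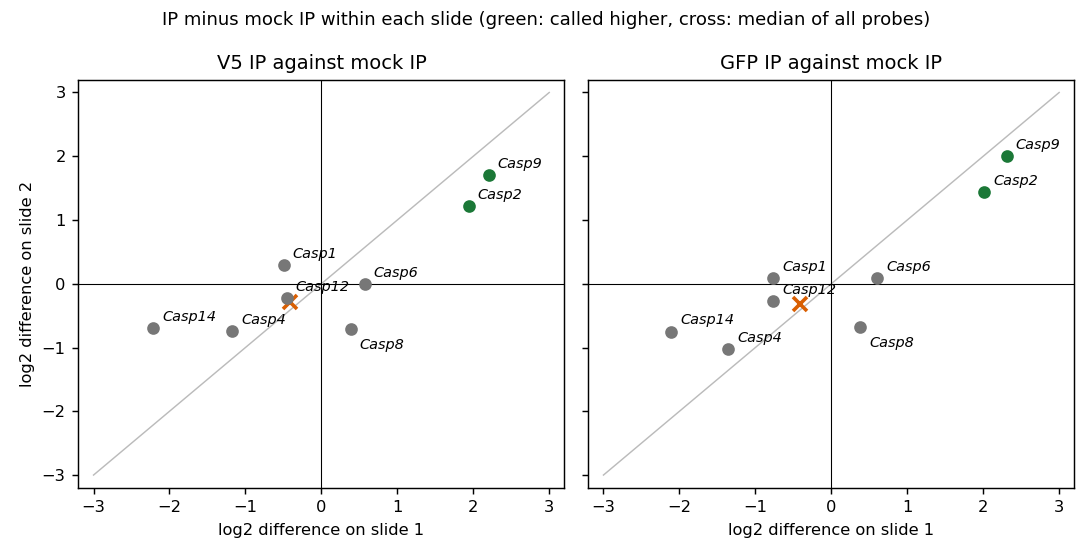
Difference of each caspase from the mock IP on the first slide (horizontal axis) and the second (vertical axis), in log2 units, for the V5 IP and the GFP IP; the diagonal marks equal differences and the cross is the median of all probes tested. Casp9 and Casp2, in green, are high on both slides, at 1.22 or more, and Casp8, Casp1 and, by a small amount in the V5 IP, Casp6 change sign between slides.

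Substrates and nucleases downstream of executioner caspases were called in both directions at shares near those of all probes (15.3% higher and 17.1% lower for V5, 17.1% and 22.5% for GFP). Of 16 measured, 3 rose and 4 fell in the V5 IP against the mock IP, and 4 rose and 6 fell in the GFP IP, with medians of -0.46 and -0.56. Lmnb1, the nuclear lamina protein lamin B1, was higher by 1.87 ± 0.40 in the V5 IP (adjusted p = 0.0195) and 1.37 ± 0.40 in the GFP IP (adjusted p = 0.0336). Dffb, the nuclease that cuts DNA between nucleosomes, differed by -0.19 ± 0.23 and -0.0012 ± 0.23, and its inhibitor Dffa by -0.49 ± 0.23 and -0.38 ± 0.23. Parp1, a DNA repair enzyme and classical substrate, differed by 0.02 ± 0.54 and 0.16 ± 0.54, and Rock1, a kinase activated by cleavage, by -0.11 ± 1.41 and -0.75 ± 1.41. None of these last 4 passed with either antibody. The other genes that rose were Gas2 and Bcap31 with both antibodies and Stk4 with GFP, and the 4 that fell with V5 were Lmna, Sptan1, Gsn and Plec, named after their values were seen.

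Among the list genes named here, the calls of Xiap and Pmaip1 with both antibodies and of Apaf1 with GFP held without each array in turn and with normexp background correction. Each other call named from these lists ended with normexp and without replicate 1 of the IP concerned. But for the GFP calls of Htra2 and Sptan1, each also ended without mock IP replicate 1. Several ended without further arrays. Cell type markers are not covered by these statements.

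**Figure D4:**
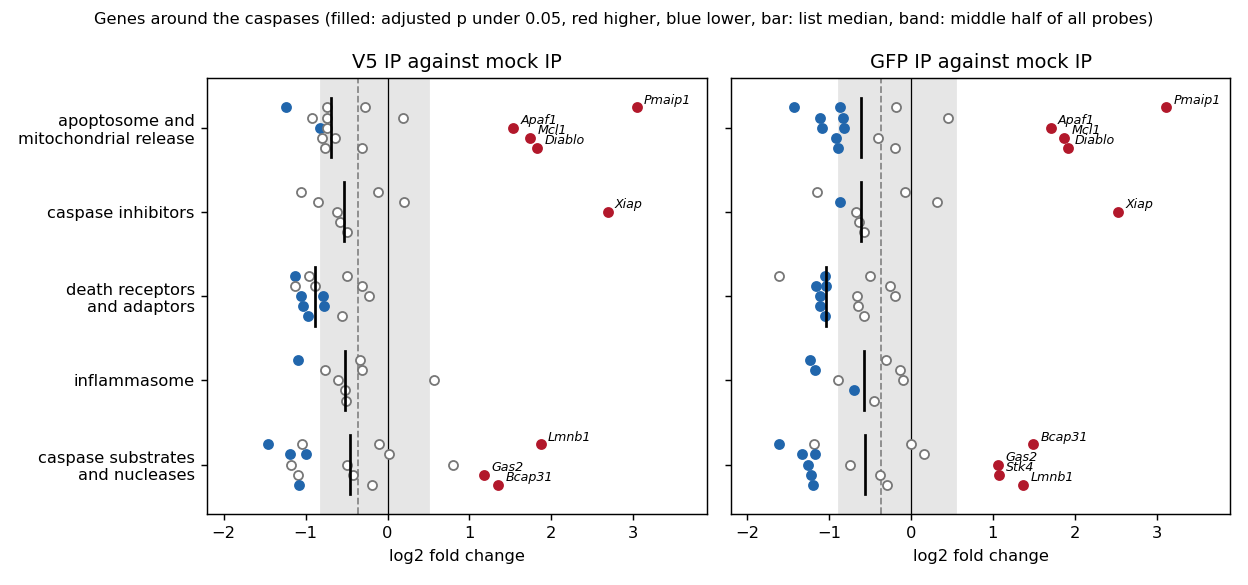
Log2 difference from the mock IP of each measured gene of the 5 pathway lists, with the V5 IP in the left panel and the GFP IP in the right; filled points passed the limma test at adjusted p under 0.05 (red higher, blue lower), black bars are list medians and the dashed line is the median of all probes. Xiap at 2.69 and Pmaip1 at 3.04 in the V5 IP stand at the right. The list of death receptors, adaptors and platforms of initiators lies to the left with no gene called higher.

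Casp1, Casp4 and Casp12 encode inflammatory caspases and are neighbouring protein-coding genes on chromosome 9 in RefSeq's GRCm38.p6 annotation. None of them passed the test against the mock IP. Casp1, which matures interleukin-1 beta and interleukin-18, had -5.18 and -4.47 in the V5 IP, -5.45 and -4.67 in the GFP IP, -4.68 and -4.77 in the mock IP, and -4.36 and -3.90 in the input (normalized log2 signal). Its IP and mock IP arrays overlapped, with log2 differences of -0.10 ± 0.37 for V5 (adjusted p = 0.846) and -0.33 ± 0.37 for GFP (adjusted p = 0.488). The sign differed between slides, at -0.50 and 0.30 for V5 and -0.76 and 0.09 for GFP.

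Casp4, whose product in mouse responds to bacterial lipopolysaccharide in the cytosol, had -4.08 and -2.43 in the V5 IP, -4.26 and -2.72 in the GFP IP, -2.90 and -1.69 in the mock IP, and -1.75 and -1.21 in the input. On each slide the order was the same, with both IPs below the mock IP and the mock IP below the input, but the slides lay up to 1.65 apart within a group. The log2 difference from the mock IP was -0.96 ± 0.72 for V5 (adjusted p = 0.318; -1.17 and -0.74 within the slides) and -1.20 ± 0.72 for GFP (adjusted p = 0.213; -1.36 and -1.03). With the slide as a block, both were called lower (adjusted p = 0.0293 and 0.0120).

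Casp12, a mouse caspase linked to the endoplasmic reticulum, had -4.63 and -4.24 in the V5 IP, -4.94 and -4.28 in the GFP IP, -4.17 and -4.01 in the mock IP, and -3.36 and -3.42 in the input. All 4 IP arrays were below both mock IP arrays, which were below both input arrays. The log2 difference from the mock IP was -0.34 ± 0.29 for V5 (adjusted p = 0.379) and -0.52 ± 0.29 for GFP (adjusted p = 0.188). These values were near the median of all probes, at percentiles 50.6 and 42.9. Within the slides it was -0.46 and -0.23 for V5 and -0.76 and -0.27 for GFP, and normexp turned the GFP difference to 0.14.

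Of 14 listed inflammasome genes, 8 were measured. In the V5 IP 0 rose and 1 fell against the mock IP (Gsdmd), and in the GFP IP 0 rose and 3 fell (Gsdmd, Nlrp3 and Nlrp1a); at an unadjusted p under 0.05 by limma, 0 were higher with either antibody and 2 and 3 were lower. Of all probes, 17.1% and 22.5% were called lower, and 28.6% and 30.8% were lower at the unadjusted threshold, so these counts are near the background. Gsdmd encodes the gasdermin cut by inflammatory caspases and, like the sensor Nlrp1a, is named after its values were seen. It was lower with both antibodies, with differences of -1.09 ± 0.28 (adjusted p = 0.0296) and -1.24 ± 0.28 (adjusted p = 0.0167). Nlrp3, an inflammasome sensor, differed by -0.52 ± 0.22 (adjusted p = 0.0980) and -0.70 ± 0.22 (adjusted p = 0.0400). The adaptor Pycard differed by -0.76 ± 0.49 and -0.90 ± 0.49, and the cytokine Il18 by -0.60 ± 0.29 and -0.45 ± 0.29; neither passed. With normexp no gene of this list was called.

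Casp1 and Casp4 are known from myeloid cells, so markers of other cells are given beside the inflammatory caspases. Of 7 myeloid markers, 4 were measured, and Ptprc, Adgre1 and Itgam did not pass the filter on dim probes. The summed linear signal of the 4, relative to the 75th percentile, was 3.94 and 4.21 in the V5 IP, 3.87 and 4.39 in the GFP IP, 10.5 and 7.66 in the mock IP, and 6.73 and 6.89 in the input. Fibroblast markers (6 of 6 measured) summed to 6.38 and 4.88 in the V5 IP, 5.66 and 4.60 in the GFP IP, 20.1 and 8.60 in the mock IP, and 11.5 and 9.64 in the input. Both sums were lower in the IPs than in the mock IP, as were Casp4 and Casp12, and their part in those values was not tested. The Casp12 difference was about that of the median probe. All 10 primordial germ cell markers listed passed the filter, and their summed signal, Dazl included, was 163 and 111 in the V5 IP, 168 and 123 in the GFP IP, 83.1 and 65.6 in the mock IP, and 86.6 and 81.5 in the input. The markers did not move together against the mock IP. Dazl, Prdm1, Kit and Ddx4 were called higher than in the mock IP with both antibodies and Nanos3 and Ifitm3 lower. Pou5f1 differed from the mock IP by -0.70 ± 0.31 and -0.74 ± 0.31 without passing. Ddx4 had 0.73 and 0.24 in the V5 IP, 0.64 and 0.41 in the GFP IP, -0.83 and -0.60 in the mock IP, and 1.06 and 0.69 in the input. On each slide its IPs thus lay above the mock IP but below the input.

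Casp14, a caspase of keratinocyte differentiation, varied more between slides than between groups. It had -4.86 and -5.94 in the V5 IP, -4.75 and -6.00 in the GFP IP, -2.64 and -5.25 in the mock IP, and -3.31 and -5.64 in the input, and was not well above background on GFP replicate 2. Replicate 1 was above replicate 2 in every group, by 2.61 in the mock IP and 2.34 in the input. Its difference from the mock IP was -1.46 ± 1.03 for V5 and -1.43 ± 1.03 for GFP (adjusted p = 0.294 each). Within the slides it was -2.22 and -0.69 for V5 and -2.11 and -0.75 for GFP, and it was called lower with the slide as a block (adjusted p = 0.0195 and 0.0181). Of 8 keratinocyte markers 6 were measured, with Ivl and Flg below the filter; their summed signal was 6.00 and 5.67 in the V5 IP, 5.26 and 5.35 in the GFP IP, 16.5 and 9.59 in the mock IP, and 4.78 and 5.24 in the input. Most of that sum was 1 probe, Krt14, with log2 signals of 3.86 and 2.93 in the mock IP. Krt10, the next brightest there, had 0.08 and 0.51. The sum was highest on mock IP replicate 1, as was Casp14, and its part in the value was not tested. It is therefore mainly a reading of Krt14 and not of 6 markers together.

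Against the input, which asks what the IP holds relative to the whole lysate, Casp9 and Casp2 were again higher and Casp8 and Casp12 lower. That is 2 of 8 caspase probes higher and 2 of 8 lower with each antibody, where 13.9% of all probes were called higher and 13.6% lower for V5, and 15.6% and 16.6% for GFP. These comparisons use the same IP arrays as those with the mock IP, so they are not separate evidence. Casp9 was 5.75-fold higher in the V5 IP than in the input (log2 difference 2.52 ± 0.29, adjusted p = 0.0030) and 6.62-fold higher in the GFP IP (2.73 ± 0.29, adjusted p = 0.00239). Casp2 was 4.02-fold higher in the V5 IP (2.01 ± 0.37, adjusted p = 0.00973) and 4.46-fold higher in the GFP IP (2.16 ± 0.37, adjusted p = 0.00645). Within the slides the differences from the input were 2.87 and 2.17 (V5) and 2.98 and 2.47 (GFP) for Casp9, and 2.40 and 1.61 (V5) and 2.48 and 1.84 (GFP) for Casp2. Leaving out 1 array ended no call of Casp9; it ended the V5 call of Casp2 without input replicate 1, input replicate 2 or V5 replicate 1 (adjusted p of up to 0.0713), and its GFP call without input replicate 2 (0.0520).

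The lower calls against the input were close to the threshold. Casp8 differed by -1.11 ± 0.34 in the V5 IP (adjusted p = 0.0474) and -1.10 ± 0.34 in the GFP IP (adjusted p = 0.0437), and both calls ended without any 1 of the V5, GFP or input arrays (up to 0.231 and 0.214). Casp12 differed by -1.05 ± 0.29 (adjusted p = 0.0362) and -1.22 ± 0.29 (adjusted p = 0.0189), and its calls ended without input replicate 1 or 2 and without replicate 1 of the IP concerned (up to 0.190 and 0.133). Casp4 had the lowest differences, -1.77 ± 0.72 and -2.01 ± 0.72, and did not pass (adjusted p = 0.105 and 0.0677), except when slide was a block (0.00331 and 0.00175), without V5 replicate 2 for both antibodies, and, for GFP, without V5 replicate 1 or GFP replicate 2, with only the groups compared in the fit, or with only probes well above background on all 8 arrays. Casp1 differed by -0.69 ± 0.37 and -0.93 ± 0.37 (adjusted p = 0.198 and 0.0919; 0.0633 and 0.0213 with the block). With the block 4 of 8 caspases were lower in the GFP IP than in the input, beside 27.2% of all probes. Casp6 differed by -0.17 ± 0.42 and -0.11 ± 0.42 and Casp14 by -0.92 ± 1.03 and -0.90 ± 1.03, and neither passed. Within the slides every difference of Casp8, Casp12, Casp4, Casp1 and Casp14 from the input was below 0, from -0.88 to -1.34 for Casp8, -0.82 to -1.58 for Casp12, -1.22 to -2.51 for Casp4, -0.57 to -1.08 for Casp1 and -0.30 to -1.55 for Casp14. Casp6 changed sign, at 0.25 and -0.59 for V5 and 0.28 and -0.49 for GFP.

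Between the mock IP and the input, no caspase was called in either direction by limma, where 5.34% of all probes were higher and 4.97% lower in the mock IP. At an unadjusted p under 0.05, 0 caspases were higher and 2 lower, Casp8 at -0.95 ± 0.34 (adjusted p = 0.103) and Casp12 at -0.70 ± 0.29 (adjusted p = 0.141); at that threshold 18.1% of all probes were higher and 15.4% lower, so 2 of 8 is near the background. The Casp8 difference passed when slide was a block (adjusted p = 0.0455, with 16.1% of all probes lower) and without mock IP replicate 2. Casp9 was 0.57 ± 0.29 higher in the mock IP than in the input (adjusted p = 0.208) and Casp2 0.43 ± 0.37 (adjusted p = 0.441). These values for Casp9 and Casp2 are smaller than their differences between the IPs and the mock IP.

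No difference between the V5 IP and the GFP IP passed the test for any caspase. The log2 differences (V5 minus GFP) ran from -0.20 for Casp9 to 0.24 for Casp4, with an adjusted p of 0.999993 for each. The call shares over all probes were 0% in both directions, and at an unadjusted p under 0.05 there were 159 probes higher and 124 lower in the V5 IP by limma, none of them a caspase. The 95% interval of the difference was -0.89 to 0.48 for Casp9 and -1.03 to 0.72 for Casp2, and differences within these bounds are not excluded. Arrays of the 2 IPs with the same replicate number lay on 1 slide and shared their deviation from the group means (r = 0.78 across probes).

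Across the 8 arrays Casp2 and Casp9 followed each other closely (Pearson r = 0.99), and Casp6 followed neither as closely (r = 0.31 with Casp2). Casp1, Casp4 and Casp12 followed one another, with r between 0.90 and 0.92. These values describe 8 arrays that share groups and slides and carry no test. The probes whose pattern over the 8 arrays was most like that of Casp9 were those of Tnks2, Hoxd13 and Sh3rf1 (r = 0.9996, 0.9992 and 0.999), and for Casp2 those of Ccdc32, Wdr45b and Epn2 (r = 0.9996, 0.9995 and 0.9993). For Casp6 they were Rpl7l1, Hibadh and Rfc5 (r = 0.996, 0.995 and 0.994), and for Casp8 Rsu1, Mr1 and Vmn2r-ps54 (r = 0.97 each).

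**Figure D5:**
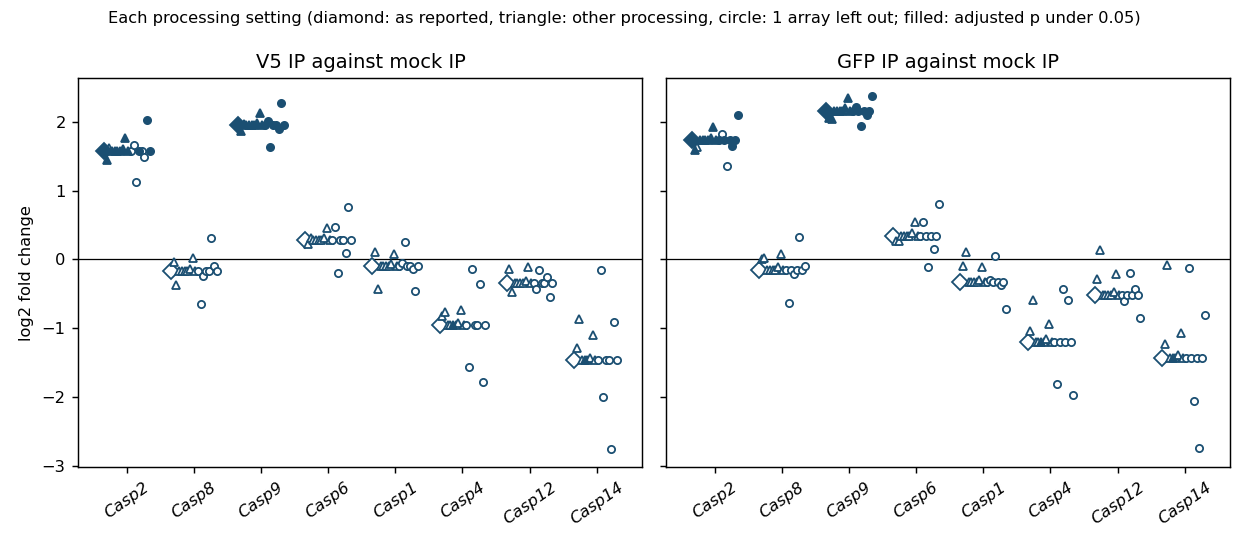
Log2 difference from the mock IP of each caspase as reported (diamond), under other processing (triangles) and with 1 array left out (circles), V5 IP left of GFP IP; filled points passed the limma test at adjusted p under 0.05. Casp9 is filled throughout, at 1.64 to 2.37, and Casp8, Casp6, Casp1 and, in the GFP IP, Casp12 have values on both sides of 0.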

How the data were processed

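Members and gene lists were chosen with earlier results of these data known. Agilent Feature Extraction 9.1.3.1 produced the deposited scanner files, per the submitters' processing notes; per the file headers, the processed signal is an intensity after background subtraction, with signals and flags per spot. The authors' deposited table holds values that matched the spots by their quality score, 45018 of 45018 within 1e-05; they are on a linear scale, and log2 with a pseudocount of 0.1 was taken for the alternative that uses them. Here log2 processed intensity minus each array's 75th percentile was used. Outlier spots were left out, and a probe stayed in if some group had it well above background on each of its 2 arrays (28104 of 41174). Limma 3.58.1 in R 4.3.3 was fitted to all 8 arrays with a shared spread, two-sided, with Benjamini-Hochberg adjustment over 28104 probes and calls at adjusted p under 0.05. The precision is limited by the number of arrays.

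Probes were named through RefSeq (GRCm38.p6 table): 22951 by accession, 6659 by current symbol and 3096 by synonym, and 8468 kept the array's name. For a list gene with several probes, the kept one with the highest mean signal over all 8 arrays stood for the gene. The IP arrays enter that mean, so the choice can favour a probe that is high in the IPs. Named list genes were 20 set by role, plus those needed to name a count of 5 or fewer. Replicate number and slide coincide; deviations of same-numbered arrays correlated at 0.30 to 0.78, over 2 pairs only. Alternatives were quantile normalization, normexp, no dim-probe filter, probes well above background on all 8 arrays, the slide as a block, only the groups compared, 1 probe per gene, median centring, the authors' table, and each array left out. The fit was also run on simulated data with independent noise and no slide effect. That run does not cover the shared deviations of these arrays. Probes of caspase genes other than the 8 described are not used here. Sequences and coordinates are not used here.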

Additional observations from a re-analysis of the deposited data

How the results depend on the processing

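Casp9 was called higher against the mock IP and the input with both antibodies under all 17 alternatives, and Casp2 was higher in these 4 comparisons under all 17, called or not. Of 810 caspase values recomputed, 708 kept their direction and side of the threshold, 44 lost a call, 15 gained one and 43 changed sign, none of the last with either value called.

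Normexp background correction left 1 caspase called higher in the V5 IP and 1 in the GFP IP against the mock IP, and 0 called lower against the input with either antibody. The caspases lower in the V5 IP than in the input numbered 1 with quantile normalization, 0 without the filter on dim probes, 1 with median centring and 1 with the authors' deposited table; for the GFP IP against the input each of these 4 settings gave 1. With the replicate block (slide), 2 caspases were lower against the mock IP with each antibody (Casp4 and Casp14), 4 were lower in the GFP IP than in the input and 1 was lower in the mock IP than in the input; the block ended no call of a caspase. Casp4 also became a call in the GFP IP against the input, for 3 lower caspases, with only the groups compared and with probes well above background on all 8 arrays. Without 1 array in turn, caspases called higher numbered 1 to 2 in each IP against the mock IP and against the input, caspases lower against the input 0 to 2 with each antibody, and caspases lower in the mock IP than in the input 0 to 1.

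Over all probes, normexp moved the calls against the mock IP to 1224 higher and 5 lower for V5 and 1270 and 81 for GFP, the calls against the input to 1322 and 302 for V5 and 1344 and 408 for GFP, and those of the mock IP against the input to 2 and 0. The replicate block gave 9326 and 10039 lower calls against the mock IP for V5 and GFP, 6930 and 7651 against the input, and 5108 higher and 4521 lower for the mock IP against the input. A fit of only the groups compared gave 2773 higher and 154 lower for V5 and 1967 lower for GFP against the mock IP, and 0 and 0 for the mock IP against the input. Without the dim-probe filter, lower calls against the mock IP were 1059 for V5 and 3732 for GFP, and the mock IP against the input had 48 higher and 36 lower; the authors' deposited table gave 1737 and 3398 lower against the mock IP. Leaving out 1 array moved calls against the input to 1068 to 4179 higher and 343 to 4535 lower for V5 and 1524 to 4690 and 755 to 5468 for GFP, and for the mock IP against the input to 0 to 3013 and 0 to 2669. With 1 probe per gene, over fewer probes, higher calls against the mock IP were 2776 for V5 and 3102 for GFP, and lower calls of the mock IP against the input 767. The median of all probes against the mock IP, -0.36 with each antibody as reported, was -0.25 and -0.23 with quantile normalization, -0.47 and 0.06 with normexp, and -0.15 and -0.14 with the authors' table (V5, then GFP).

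Sign changes with other processing were uncalled, and the largest were between the antibodies with normexp. Against the mock IP, Casp8 was 0.0278 for V5 with the authors' table, and 0.0074, 0.0245 and 0.0722 for GFP with quantile normalization, normexp and the authors' table. Casp1 was 0.1135 and 0.0757 for V5 with quantile normalization and the authors' table, and 0.1103 for GFP with normexp, which also gave 0.1431 for Casp12. Against the input, Casp6 was 0.0234 for V5 with normexp and 0.0364 for GFP with the authors' table, and Casp14 in the mock IP was -0.0878 with normexp. For V5 minus GFP, normexp gave 0.0416 for Casp6, -0.5395 for Casp1, -0.1686 for Casp4 and -0.6144 for Casp12. The causes were not tested.

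Sign changes without 1 array gave these ranges. Against the mock IP, V5 and GFP differences ran from -0.6435 to 0.3112 and from -0.632 to 0.3227 for Casp8, from -0.2029 to 0.767 and from -0.1111 to 0.8022 for Casp6, and from -0.4558 to 0.2575 and from -0.722 to 0.0536 for Casp1. Against the input they ran from -0.655 to 0.315 and from -0.5631 to 0.3501 for Casp6, and from -2.0928 to 0.2453 and from -2.0689 to 0.2693 for Casp14; for the mock IP, Casp14 ran from -0.772 to 1.8355. V5 minus GFP ran from -0.6003 to 0.297 for Casp2, -0.0849 to 0.0619 for Casp8, -0.5179 to 0.1105 for Casp9, -0.5485 to 0.4215 for Casp6, -0.1527 to 0.6229 for Casp1, -0.5845 to 1.063 for Casp4, -0.1529 to 0.5034 for Casp12 and -0.6473 to 0.5993 for Casp14. Where 1 array was left, it was assumed to vary like the other groups. With 2 arrays a group, an exact test cannot go below 0.333.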
